A study of Mus musculus with 6 samples.

Results

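The genes of the cytosolic and the mitochondrial ribosome were followed through open-chromatin peak lists of mouse long-term haematopoietic stem cells. Members were all protein-coding genes of chromosomes 1 to 19 whose symbol begins with Rpl, Rps or Rplp and a digit, or is Rpsa, with the Rps6k kinases left out (87 cytosolic genes), or begins with Mrpl or Mrps and a digit (78 mitochondrial genes). Together they are 165 of 20665 protein-coding genes that RefSeq places on these chromosomes of GRCm38.p6 (the assembly known as mm10). The choice used symbols and no peak value, though it was made with earlier results of these data known. The symbol rule also took 14 cytosolic names that are not the main copy of a ribosomal protein, among them paralogs (Rpl3l, Rpl10l, Rpl39l, Rpl22l1), copies named as retrogenes (Rps27rt, Rpl37rt) and Rps19bp1, a protein that binds Rps19. The other 73 cytosolic genes are called the core set here.

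The 3 aged and 3 young C57BL/6 samples were compared by ATAC-seq, a method in which a transposase inserts sequencing adapters where DNA is accessible. All cells were sorted from lineage-negative marrow as positive for Kit and Sca1 and negative for Flk2 and Cd34, and both age groups shared an overnight incubation at 3% oxygen in buffered salt solution with serum, so no value describes freshly isolated cells. Neither the age in weeks nor the sex is stated, and whether replicates were separate animals is not stated either, so p-values measure a spread between samples that may be technical. The authors called peaks in each sample alone on mm10. Aged replicates 1 to 3 had 244692, 129137 and 129949 distinct peaks and young replicates 1 to 3 had 263956, 254869 and 110596. Young replicate 2 stood apart from the other 5 lists. It had 224 peaks at a −log10 q of at least 5, while the other lists had 6005 to 31725, and its peaks took 200 distinct p-values, so long runs of peaks were tied. Counts of members called in all 6 lists are therefore also given without it. The other lists were not alike either. Aged replicate 2 and young replicate 3 had 31725 and 31220 peaks at a −log10 q of at least 5, and the remaining lists 6005 to 15881. Read depth was not given. Of 20 stem-cell identity genes, 8 were called in every list (Lyl1, Meis1, Kit and Tal1 among them), a share near the 35.9% of all genes, against 2 of 14 myeloid, 0 of 10 B-cell, 0 of 10 T- and NK-cell, 2 of 9 erythroid, 4 of 10 megakaryocyte and 0 of 10 endothelial and stromal markers. Without young replicate 2 the B-cell and the T- and NK-cell markers had 1 of 10 each, and the other counts did not change. The 8 of 20 stem-cell identity genes (40%) were then below the 44.5% of all genes.

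Ribosomes translate messenger RNA, and each has a large and a small subunit of RNA and proteins. Cytosolic ribosomal protein genes are transcribed strongly in nearly all cells, and their messages often start with a run of pyrimidines through which mTOR signalling, with the protein Larp1, controls their translation. Mitochondrial ribosomal proteins are encoded in the nucleus and imported into mitochondria, where they serve translation of the few proteins that the mitochondrial genome encodes. Long-term haematopoietic stem cells are known for a low rate of protein synthesis, and loss of 1 copy of certain cytosolic ribosomal protein genes causes Diamond-Blackfan anaemia in humans.

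A feature that the symbol rule did not use, a run of pyrimidines at the start of the message, was counted in cytosolic promoters and in 0 mitochondrial ones. The 4 cytosolic promoters below belong to the members with the highest lowest rank over the lists among those whose listed start nearest to the peak summit is a C followed by at least 4 C or T bases and whose median summit lay within 250 bp of a listed start. That limit leaves out Rplp2, whose summit lay 337 to 365 bp before its start in 5 lists. All stretches are from RefSeq on GRCm38.p6, are written 5′ to 3′ on the strand of the gene, and run from 120 bases before the listed start to 30 bases from it. Capitals mark the pyrimidine run at the start and any match, on either strand, to the motifs that were counted, those of ETS factors (CCGGAAG), NRF1, YY1, SP and KLF factors (GGGCGG) and NF-Y, the E-box and the TATA box. The Rps21 stretch is chr2:180257259-180257408 on the plus strand, and its pyrimidine run CTCCT shares its first base with an SP/KLF match. The Rpl14 stretch is chr9:120571397-120571546 on the plus strand, the Rpl28 stretch chr7:4792845-4792994 on the plus strand, and the Rps15a stretch chr7:118116118-118116267 on the minus strand.
Rps21: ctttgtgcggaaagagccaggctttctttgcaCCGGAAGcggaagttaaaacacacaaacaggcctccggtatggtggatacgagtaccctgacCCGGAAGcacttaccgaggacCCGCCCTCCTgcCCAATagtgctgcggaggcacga
Rpl14: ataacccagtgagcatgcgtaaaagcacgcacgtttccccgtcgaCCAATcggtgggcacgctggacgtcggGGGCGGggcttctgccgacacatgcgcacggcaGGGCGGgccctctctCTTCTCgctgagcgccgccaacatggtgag
Rpl28: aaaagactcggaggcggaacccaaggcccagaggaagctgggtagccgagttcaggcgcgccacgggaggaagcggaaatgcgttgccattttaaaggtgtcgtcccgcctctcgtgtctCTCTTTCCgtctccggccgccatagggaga
Rps15a: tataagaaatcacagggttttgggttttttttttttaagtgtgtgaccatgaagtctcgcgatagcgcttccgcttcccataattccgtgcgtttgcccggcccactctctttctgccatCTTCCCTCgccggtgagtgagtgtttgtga

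Among mitochondrial members the printed promoters are those of 4 genes with some of the highest-ranked peaks in every list and with an ETS, NRF1 or YY1 match. Mrpl34 is shown at chr8:71464806-71464955 (plus strand), Mrps27 at chr13:99344666-99344815 (plus strand), Mrpl17 at chr7:105811058-105811207 (minus strand) and Mrps12 at chr7:28741792-28741941 (minus strand). The last stretch is of the cytosolic gene Rps2 at chr17:24719943-24720092 (plus strand), whose listed start lies inside the annotated gene and matters for the counts below.
Mrpl34: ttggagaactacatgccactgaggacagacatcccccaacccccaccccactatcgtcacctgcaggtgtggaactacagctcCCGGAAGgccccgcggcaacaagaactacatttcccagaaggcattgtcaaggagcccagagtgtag
Mrps27: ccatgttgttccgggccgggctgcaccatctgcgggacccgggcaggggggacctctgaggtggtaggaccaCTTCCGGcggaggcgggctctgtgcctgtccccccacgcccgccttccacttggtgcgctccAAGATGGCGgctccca
Mrpl17: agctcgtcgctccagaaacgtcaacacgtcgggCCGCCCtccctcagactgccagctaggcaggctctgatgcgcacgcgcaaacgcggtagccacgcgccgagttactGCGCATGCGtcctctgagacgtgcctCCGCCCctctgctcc
Mrps12: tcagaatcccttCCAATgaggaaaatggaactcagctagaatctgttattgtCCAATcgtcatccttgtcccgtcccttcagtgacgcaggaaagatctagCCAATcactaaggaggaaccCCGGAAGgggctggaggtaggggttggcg
Rps2: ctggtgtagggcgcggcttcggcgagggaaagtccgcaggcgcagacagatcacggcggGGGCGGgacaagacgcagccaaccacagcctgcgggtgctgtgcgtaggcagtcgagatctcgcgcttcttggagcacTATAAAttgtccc

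A gene was called in a list where at least 1 base of a peak lay within 1 kb of either annotated end. Of the cytosolic genes, 63 of 87 (72.4%) were called in all 6 lists, and of the mitochondrial genes 43 of 78 (55.1%). The share over all protein-coding genes was 35.9%. Without young replicate 2 the counts were 71 of 87 (81.6%) cytosolic and 57 of 78 (73.1%) mitochondrial genes, against 44.5% of all genes. Both sets stood above the share of all genes with or without that list. The core set reached 60 of 73 (82.2%) in all 6 lists and 66 of 73 without young replicate 2, while 3 of the 14 other cytosolic names (Rpl22l1, Rpl36al and Rpl3l) were called throughout, and 5 without that list. Rpl3l, however, had a peak within 1 kb of a listed start in young replicate 2 alone, at percentile 42.7. An end of Msrb1 lies within 1 kb of an end of Rpl3l. By symbol, 38 of 53 large-subunit and 25 of 34 small-subunit cytosolic genes, and 27 of 49 large-subunit and 16 of 29 small-subunit mitochondrial genes, were called in all 6 lists. Without young replicate 2 these counts were 41 and 30 for cytosolic and 35 and 22 for mitochondrial genes. Symbols do not always give the subunit, since the products of Mrps18a and Mrps30 are known from the large subunit.

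Most members that missed 1 list missed the same one. Of the 11 cytosolic genes called in exactly 5 lists, 8 lacked a peak in young replicate 2 alone, 2 in aged replicate 3 alone and 1 in young replicate 1 alone. Of the 19 such mitochondrial genes, 14 lacked it in young replicate 2, 4 in aged replicate 3 and 1 in aged replicate 1. Among all genes, 1777 of 3133 called in exactly 5 lists lacked young replicate 2 and 1080 lacked aged replicate 3.

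**Figure D1:**
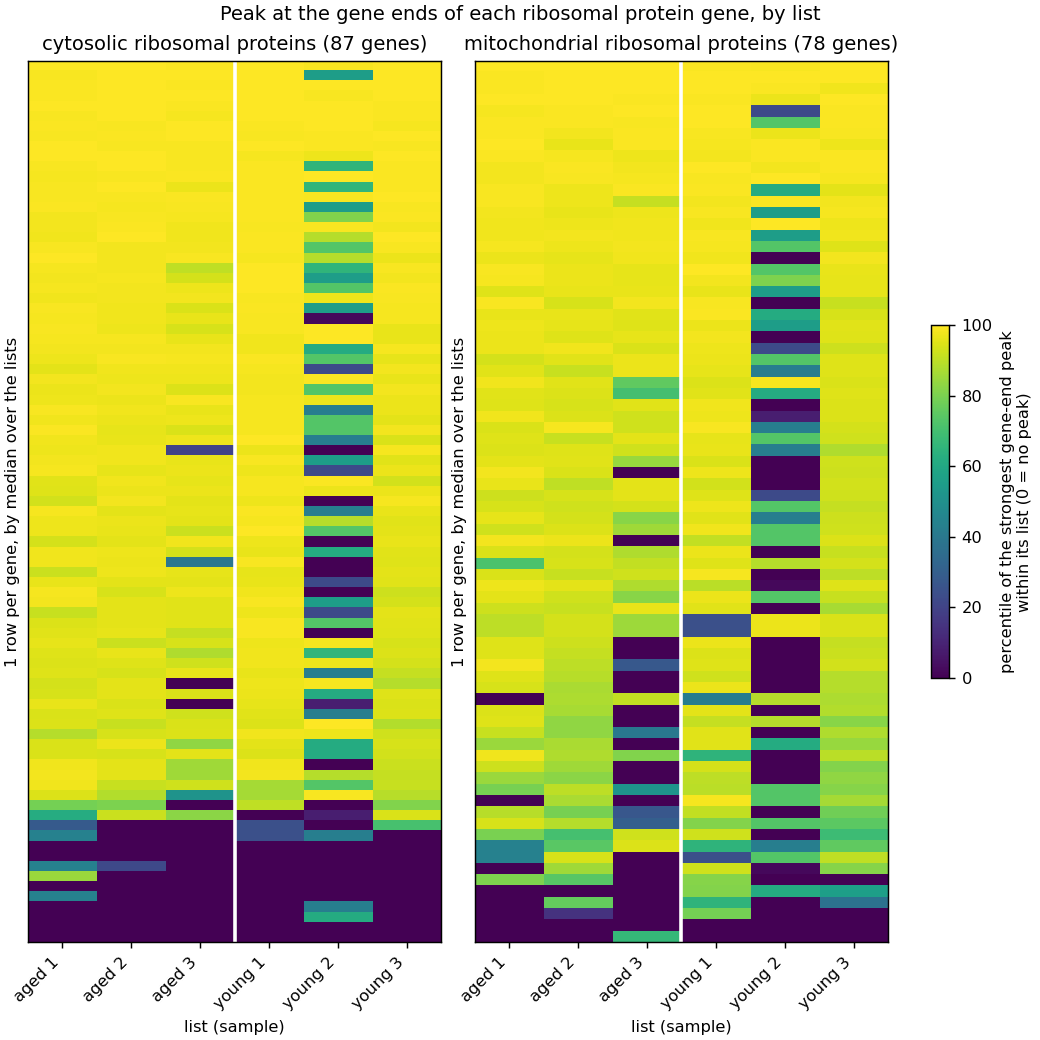
Percentile of the strongest gene-end peak of each of the 87 cytosolic (left) and 78 mitochondrial (right) ribosomal protein genes in the 3 aged and 3 young lists, with 1 row per gene, ordered by median, and 0 (dark) where no peak was called. Most rows are bright in 5 columns, and the gaps gather in young replicate 2 and, for mitochondrial genes, aged replicate 3.

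The share of members called varied between lists of 1 age more than between ages. For cytosolic genes it was 92.0%, 87.4% and 82.8% in aged replicates 1 to 3 and 87.4%, 79.3% and 87.4% in young replicates 1 to 3, a mean of 87.4 ± 4.60% in aged lists and 84.7 ± 4.65% in young lists (SD, n = 3 each). For mitochondrial genes it was 89.7%, 97.4% and 75.6% in aged lists and 97.4%, 65.4% and 94.9% in young lists, a mean of 87.6 ± 11.1% in aged lists and 85.9 ± 17.8% in young lists (SD, n = 3 each). The ranges of the ages overlapped in both sets. Over all genes the share was 69.9%, 65.5% and 54.1% in aged lists and 70.6%, 55.7% and 65.3% in young lists, so the lists with the fewest mitochondrial calls, aged replicate 3 and young replicate 2, were also the ones with the fewest calls overall. What part depth or peak calling had in this was not tested. Intervals drawn on shares are Wilson 95% intervals over genes and cover counting error only.

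**Figure D2:**
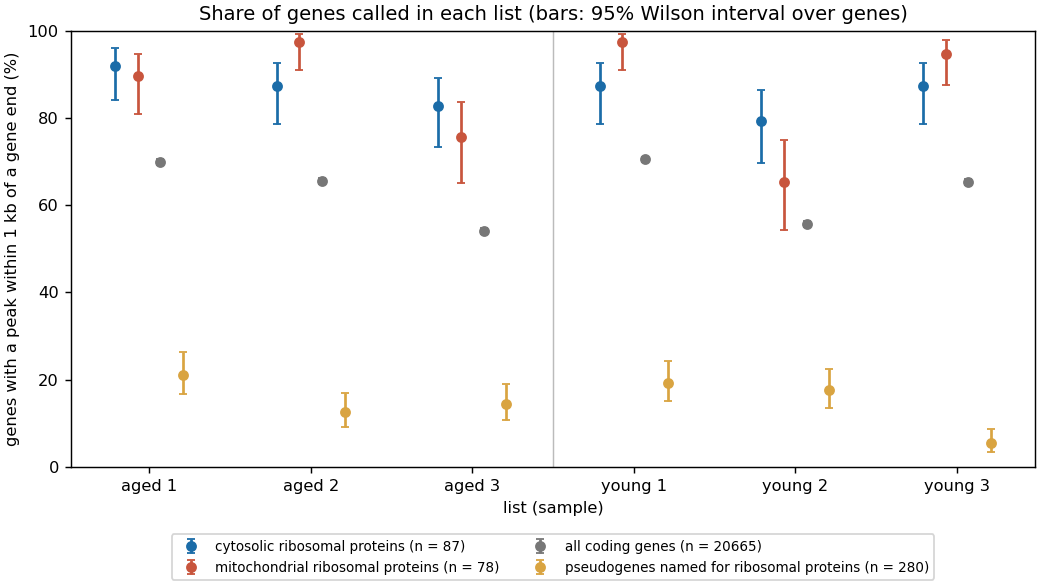
Share of genes with a peak within 1 kb of a gene end (%) in each list for cytosolic members, mitochondrial members, all coding genes and pseudogenes named for ribosomal proteins, with 95% Wilson intervals. Cytosolic members lay between 79.3% and 92.0% and mitochondrial members between 65.4% and 97.4%, above all coding genes in each list, and the 280 pseudogenes lay between 5.36% and 21.1%.

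Peaks of members ranked high in 5 of the 6 lists. Peaks were ranked by their −log10 p within each list, so that a percentile gives the share of distinct peaks in that list that were weaker, and a gene without a peak was set at 0. The median cytosolic gene stood at percentiles 97.7, 97.0 and 95.8 in aged lists and 98.4, 61.5 and 96.0 in young lists. The median mitochondrial gene stood at 95.2, 94.0 and 92.0 in aged lists and 96.6, 55.6 and 92.8 in young lists, and the median of all genes at 84.9, 81.3 and 28.0 in aged lists and 86.5, 22.3 and 79.2 in young lists. The cytosolic median was above the mitochondrial median in each of the 6 lists, by 1.87 to 5.89 percentile points (mean 3.37 ± 1.39, SD, n = 6 lists). These medians include uncalled genes at 0, so they also reflect the share called. Among genes with a peak at a listed start, the cytosolic median was 97.9, 97.7 and 96.6 in aged lists. The mitochondrial median was 95.9, 94.5 and 95.4 there, close to 95.3, 93.6 and 94.4 over all genes. In young replicates 1 and 3 these medians were, in that order, 98.7 and 96.9, 97.1 and 93.7, and 96.4 and 92.8. In young replicate 2 all were 73.1. Ranked among all 20665 genes in place of all peaks, the cytosolic median was 80.3, 82.8 and 79.0 in aged lists and 82.9, 64.0 and 80.7 in young lists, and the mitochondrial median 67.6, 70.7 and 71.0 in aged lists and 69.6, 59.6 and 69.3 in young lists, a difference of 10.3 ± 3.49 points (SD, n = 6 lists). The shares called showed no such order: cytosolic genes were called more often than mitochondrial ones in aged replicates 1 and 3 and young replicate 2, and less often in the other 3 lists. For the core set alone, the share minus the mitochondrial share was 7.52, −0.176 and 16.1 points in aged lists. In young lists it was −2.92, 22.3 and 1.02 points.

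**Figure D3:**
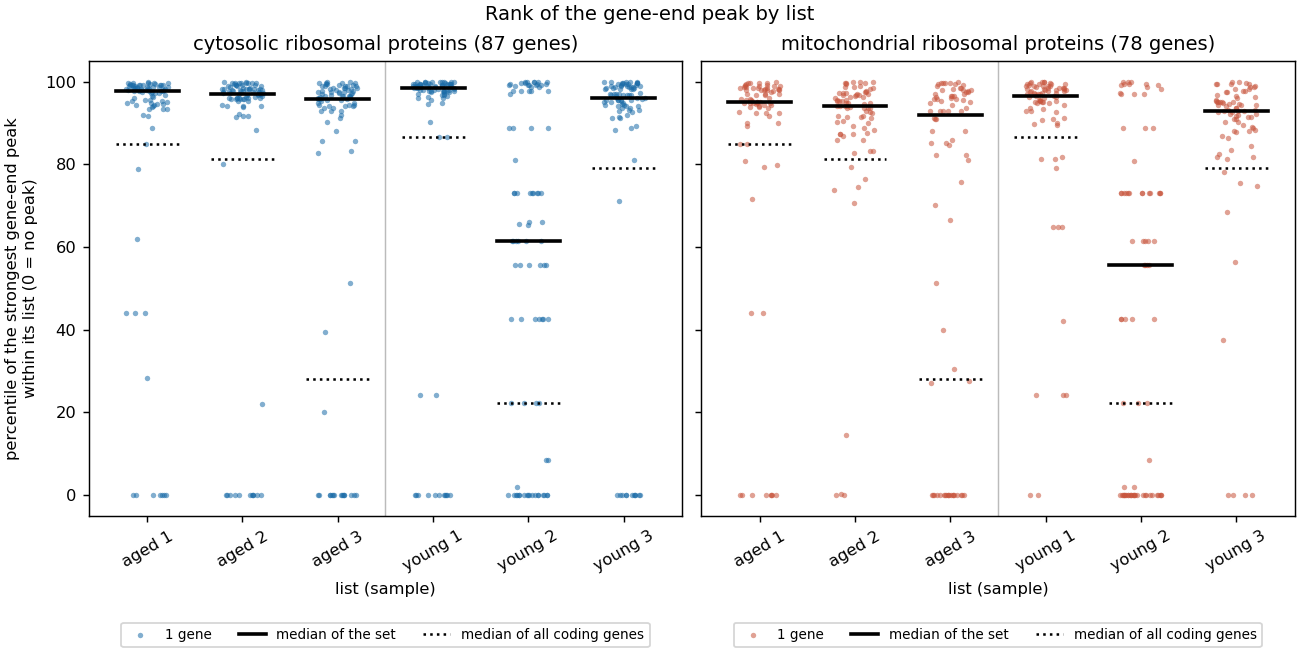
Percentile of the strongest gene-end peak within its list for each cytosolic (left) and mitochondrial (right) gene, with the median of the set (solid line) and of all coding genes (dotted line), aged lists left of young lists. In 5 lists the set medians lie between 92.0 and 98.4, and in young replicate 2 they fall on tied levels at 61.5 for cytosolic and 55.6 for mitochondrial genes.

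The cytosolic genes named next were chosen by their lowest percentile over the 6 lists, so a high place in each list follows from the choice. Rps19 (chr7:24884592-24889811), the small-subunit gene most often mutated in Diamond-Blackfan anaemia, stood at percentiles 99.7, 99.7 and 99.4 in aged lists and 99.9, 99.9 and 99.6 in young lists. Its peak was 895, 1004 and 776 bp wide in aged lists and 803, 614 and 910 bp in young lists, with a fold enrichment over background, as the authors deposited it, of 11.7, 14.5 and 8.88 in aged lists and 13.1, 6.45 and 15.8 in young lists. Fold enrichment and −log10 p depend on the depth of each sample and were not compared between lists. By the same rule, the highest lowest percentile over the 6 lists, it was followed, among others, by Rps3, which lies at the channel through which messenger RNA enters, and by Rpl27, Rps21, Rpl41, which encodes a very short large-subunit peptide, Rpl37, Rps29, Rps20 and Rpl31. Rpl27, a large-subunit gene at chr11:101442245-101445596, reached 99.8, 99.8 and 99.6 in aged lists and 99.96, 99.1 and 99.9 in young lists. These 9 genes stood at 98.5 or more in every list. Rps21, Rpl41, Rpl37 and Rpl31 have an end of another coding gene within 1 kb (Cables2, Zc3h10, Card6 and Tbc1d8). Their peaks cannot be assigned to 1 gene of the pair.

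The same rule was used to choose 10 mitochondrial genes, with lowest percentiles from 96.8 upward. Mrpl47 (chr3:32727497-32736755), a large-subunit gene whose ends lie within 1 kb of an end of Ndufb5 and of Actl6a, stood at 99.4, 99.96 and 99.6 in aged lists and 99.7, 99.96 and 99.7 in young lists. Mrpl48 (chr7:100545779-100608301), next to Rab6a, stood at 99.8, 99.8 and 99.7 in aged lists and 99.4, 99.1 and 99.8 in young lists. The others were Mrpl45, which helps to hold the mitochondrial ribosome at the inner membrane, Mrpl34, Mrps18b, Mrps27, Mrps16, Mrpl41, Mrpl17 and Mrps12, the counterpart of a bacterial protein of the decoding site. Where an end of another coding gene lies within 1 kb, as for 8 of these 10, a peak cannot be assigned to 1 of the pair.

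Genes that are mutated in Diamond-Blackfan anaemia, or lost in the myelodysplastic syndrome with a deleted long arm of human chromosome 5, were called in 18 of 19 cases in all 6 lists and in 19 of 19 without young replicate 2. The core set, which holds all 19, was called in 82.2% and 90.4%, and all genes in 35.9% and 44.5%. The exception, Rps10, stood at 92.0, 97.4 and 96.5 in aged lists and at 96.2 and 95.9 in young replicates 1 and 3, with no peak in young replicate 2. Rps14, the small-subunit gene of the deletion syndrome, stood at 97.6, 97.0 and 98.9 in aged lists and 98.4, 97.6 and 97.3 in young lists. Rpl11, which with Rpl5 and 5S ribosomal RNA can bind and inhibit Mdm2, stood at 98.6, 97.9 and 96.6 in aged lists and 99.0, 1.97 and 98.8 in young lists. Rps7 and Rpl26 were also lowest in young replicate 2, at 22.3 each, which was the median of all genes there. Both were at 95.6 or more elsewhere. Not every gene of this group was low in young replicate 2, as the value of Rps14 shows. Rpl35a had its lowest value in aged replicate 3 (94.8, 88.4 and 51.4 in aged, 86.5, 99.1 and 89.4 in young lists).

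No member was called in every list of 1 age and in no list of the other. Among all genes, 0.213% were called in the 3 aged lists alone and 0.3% in the 3 young lists alone. Per-gene ranks were also compared by limma, which fits all genes together. Ranks of the strongest gene-end peak over all genes were turned into normal scores, so that a difference is in SD units of a list, and 14039 genes called in at least 3 of the 6 lists were tested, 77 cytosolic and 75 mitochondrial members among them. At a Benjamini-Hochberg adjusted p of at most 0.05, limma called 0% of genes higher and 0% lower in aged cells, members included, and the lowest adjusted p of any gene was 0.941. At an unadjusted limma p under 0.05 there were 450 genes of 14039 (3.21%), 1 cytosolic and 2 mitochondrial members among them, all lower in aged cells. A p above the threshold does not show that the ages were alike.

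The 3 members were Mrps18a, Mrps23 and Rps20. Mrps18a (chr17:46111004-46128908), 1 of 3 paralogs related to a bacterial small-subunit protein, had no peak in aged replicates 1 and 3 and stood at 87.2 in aged replicate 2, against 98.5, 73.1 and 86.5 in young lists (difference −1.11, SE 0.37, unadjusted p = 0.0098, adjusted p = 0.941 by limma). A peak elsewhere in the gene was called in aged replicates 1 and 3 as well, at percentiles 29.3 and 75.8. Mrps23 was at 0, 0.340 and 0 in aged lists and at 81.3, 61.5 and 56.4 in young lists at its annotated ends (difference −0.75, adjusted p = 0.941 by limma). At its start in the RefSeq promoter table, however, it stood at 96.5, 96.9 and 99.2 in aged lists and 97.5, 61.5 and 95.3 in young lists, where the ages overlap. Rps20 was among the strongest members in every list, at 99.1, 99.6 and 98.5 in aged lists and 99.9, 99.98 and 99.6 in young lists (difference −0.75, adjusted p = 0.941 by limma), and its lowest young value was just below its highest aged value.

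The median difference, aged minus young, was 0.02 for the cytosolic members tested (41 of 77 above 0), 0.14 for the mitochondrial members (45 of 75) and 0.02 for all genes tested. Without young replicate 2 it was −0.15 (29 of 76), −0.03 (34 of 75) and −0.03, so the sign for both sets turned without that list. The cytosolic sign also turned without aged replicate 2 (−0.03, 36 of 77) and with windows of 500 bp (−0.0068, 36 of 74). The set medians did the same: the cytosolic median percentile was 96.8 ± 0.967 in aged lists and 85.3 ± 20.7 in young lists (SD, n = 3 each), a difference of 11.5 points that was −0.406 without young replicate 2, and the mitochondrial difference of 12.1 points was −0.964 without it. Same-numbered replicates carry the same number after "exp" in their titles (2, 5 and 3), which the labels do not explain. Within these pairs, aged minus young, the cytosolic median differed by −0.765, 35.6 and −0.252 points and the mitochondrial median by −1.39, 38.5 and −0.845 points, so the difference was above 0 only in the pair that holds young replicate 2. The shares called differed by 4.60, 8.05 and −4.60 points for cytosolic and by −7.69, 32.1 and −19.2 points for mitochondrial genes, with no common sign.

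Some members were called in more lists of 1 age than of the other. Rpl21, Rps10 and Rps15, and Mrps24, Mrps18c, Mrpl30 and Mrpl54, had a peak in all lists but young replicate 2. Rpl4 stood at 93.5, 95.9 and 0 in aged lists and 97.4, 98.6 and 88.8 in young lists, and Mrpl33 and Mrpl13 likewise lacked a peak in aged replicate 3 alone. Rpl35 lacked one in young replicate 1 alone, at 61.9, 92.1 and 82.7 in aged lists and 0, 8.54 and 94.2 in young lists. Mrps10 lacked one in young replicate 2 and stood at 97.9, 88.2 and 81.2 in aged lists and at 65.0 and 89.6 in young replicates 1 and 3. Mrps2, another small-subunit gene, was at 0, 85.8 and 0 in aged lists and 92.7, 1.97 and 81.7 in young lists, and at 78.8, 90.4 and 95.4 in aged lists and 94.2, 1.97 and 86.6 in young lists once its listed start was counted. Mrpl53 stood at 0, 76.4 and 0 in aged lists and 65.0, 0 and 37.6 in young lists, and Mrps5 at 84.9, 82.7 and 0 in aged lists and 90.1, 0 and 83.4 in young lists, so the ages overlapped for both. Mrpl22 stood at 80.8, 73.9 and 0 in aged lists and 81.7, 0 and 0 in young lists, and had a peak in all lists but young replicate 2 once its listed starts were counted. Rpl39l, known as a testis paralog of Rpl39, was called in young replicate 2 alone (42.7) and Rpl37rt in aged replicate 1 alone (44.1). Rpl34-ps1 and Rps23rg1, copies of other ribosomal protein genes, had peaks in 3 lists each, at 71.1 or below.

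Several members with few calls had a strong peak inside the annotated gene. Annotated ends can lie away from the listed start, as for the printed Rps2 promoter: the gene is annotated at chr17:24718121-24721927, but its listed start is position 24720063. At the ends Rps2, a small-subunit protein near the entry of messenger RNA, was called in young replicate 2 alone, while with the listed start it stood at 97.8, 98.2 and 97.4 in aged lists and 96.6, 61.5 and 97.3 in young lists. Rpl22, a large-subunit protein that T-cell development in mice depends on, was at 44.1, 22.0 and 0 in aged lists and without a peak in young lists at its ends. With its listed starts it stood at 98.7, 99.8 and 93.8 in aged lists and 99.6, 99.6 and 99.9 in young lists, so the age pattern at the ends was not seen at the start. Mrpl18, a large-subunit gene, was called at its ends in aged replicate 2 and young replicate 1, and stood at 98.2 or more in all 6 lists at its listed start. Mrpl24 stood at 94.4, 95.7 and 92.8 in aged lists and at 98.6 and 96.3 in young replicates 1 and 3 there, and Rps27l, a paralog of Rps27 that p53 induces, at 97.6, 97.8 and 98.1 in aged lists and 98.9, 73.1 and 97.8 in young lists. Rpl17 had a peak within the gene in the 5 lists other than young replicate 2, at 94.6 or more, and Mrpl4 in all 6, at 73.1 or more.

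With the listed starts added, a choice made after the gene-end values had been seen, 66 cytosolic and 46 mitochondrial genes had a call in each of the 6 lists, against 39.6% of all genes, and 75 and 62 without young replicate 2, against 48.5%. Counting any peak in the gene or within 1 kb of it gave 68 and 56 genes against 63.4%, and 76 and 69 without young replicate 2 against 66.7%. Under the whole-gene count, which favours long genes, the gap between the background and both the cytosolic (78.2%) and the mitochondrial share (71.8%) was narrower. Rpl10l, Rpl32l and Rps27rt had no peak under any of the 3 counts. Rpl10l is known as a testis-expressed copy of Rpl10, and Rps27rt is named as a retrogene. How reads that match several copies were placed is not stated, so values of recent copies are uncertain.

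Peaks of both sets sat just before the listed start of transcription, as did those of all genes. The start was known for 66 cytosolic and 69 mitochondrial genes. The median summit of the strongest start peak lay 52, 48.5 and 43 bp before the start in aged lists and 38, 61.5 and 36.5 bp before it in young lists for cytosolic genes, and 46, 41 and 26 bp in aged lists and 38.5, 82 and 34 bp in young lists for mitochondrial genes. Over all genes it lay 41, 41 and 46 bp before the start in aged lists and 40, 46 and 38 bp before it in young lists. In the 5 lists other than young replicate 2, 89.8% to 94.8% of cytosolic and 87.0% to 89.9% of mitochondrial summits were within 250 bp of the start, against 71.8% to 78.9% over all genes. In young replicate 2 it was 62.5% of cytosolic and 70.7% of mitochondrial summits, against 58.9% over all genes. Among genes longer than 2 kb, the start was called far more often than the other end: in aged lists in 94.2%, 92.3% and 90.4% and in young lists in 92.3%, 75.0% and 92.3% of 52 cytosolic genes, while the other end was called in 11.5% to 25.0%. For 65 mitochondrial genes the start was called in 96.9%, 100% and 78.5% in aged lists and 98.5%, 58.5% and 100% in young lists, and the other end in 12.3% to 27.7%. Over all 14542 genes of that length the start was called in 72.8%, 71.3% and 57.3% in aged lists and 72.4%, 53.2% and 71.4% in young lists, and the other end in 13.9% to 24.8%, a range that covers most of both.

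**Figure D4:**
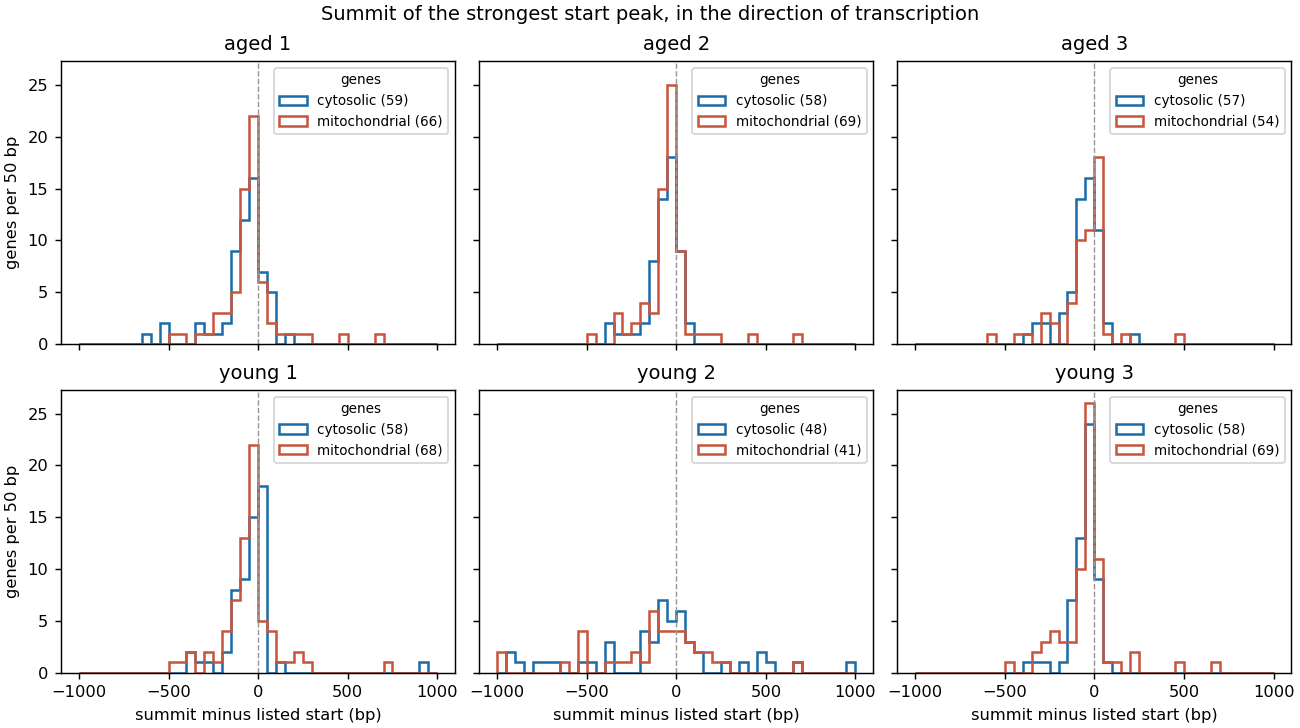
Number of cytosolic and mitochondrial genes per 50 bp by the position of the summit of their strongest start peak relative to the listed start (bp, negative upstream, positions beyond the axis set at its end), in the aged lists (top row) and young lists (bottom row). In 5 lists the summits pile up at the start, and in young replicate 2 they are spread.

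Peak width at the start differed between sets less than between lists. Cytosolic start peaks had a median width of 482, 741 and 393 bp in aged lists and 522, 279.5 and 642.5 bp in young lists, mitochondrial ones 416, 640 and 374 bp in aged lists and 449.5, 327 and 584 bp in young lists. They were wider for cytosolic genes in 5 lists and narrower in young replicate 2. Over all genes with a start peak the medians were 410, 652 and 361 bp in aged lists and 436, 283 and 595 bp in young lists.

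The sets differed in their genomic surroundings. Cytosolic genes were short, with a median length of 3183 bp against 17491 bp over all genes, and 28 of 87 (32.2%) held an annotated small nucleolar RNA, 57 such RNAs in all, against 1.72% of all genes. Small nucleolar RNAs guide chemical modification of ribosomal RNA and are processed from introns of their hosts. Mitochondrial genes had a median length of 7690.5 bp, 1 (Mrps9) held such an RNA, and 44 of 78 (56.4%) had an end of another coding gene within 1 kb of 1 of theirs, against 34.5% of cytosolic and 25.6% of all genes. Among all genes, 57.0% of genes with such a neighbour and 28.7% of those without were called in all 6 lists. Among mitochondrial members it was 26 of 44 with and 17 of 34 without a neighbour, and among cytosolic members 24 of 30 with and 39 of 57 without. Without young replicate 2 it was 35 and 22 of the mitochondrial and 25 and 46 of the cytosolic members, against 67.5% and 36.7% of all genes. Members without a neighbour were thus still called more often than such genes in general. Of the 28 hosts of small nucleolar RNAs 22 were called in all 6 lists, and of the other 59 cytosolic genes 41, against 53.5% of all hosts and 35.6% of all other genes. These counts were 24 and 47 without young replicate 2, against 63.7% and 44.2%. Mrpl46 and Mrps11, 1 gene for each mitochondrial subunit, are the only members that neighbour each other. They share 1 peak per list, at 90.1, 93.6 and 85.2 in aged lists and 24.3, 96.9 and 94.2 in young lists, and so count as 2 members with 1 value.

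Promoters of the sets shared some features and differed in others. Over the 250 bases before and 50 bases from each listed start, the ETS motif CCGGAAG was present on either strand in 33.3% of 78 cytosolic and 34.7% of 75 mitochondrial promoters, against 11.9% of all 20085 promoters. The YY1 motif AAGATGGCG was present in 7.69% and 10.7%, against 1.83% of all, and the NRF1 motif GCGCATGCG in 3.85% of cytosolic and 9.33% of mitochondrial promoters, against 2.37%. NRF1 is a known activator of nuclear genes for mitochondrial proteins, and the 7 mitochondrial members with its motif were Mrpl9, Mrpl10, Mrpl17, Mrpl22, Mrpl32, Mrpl39 and Mrps18b. The other motifs were nearer to their shares in all promoters. GGGCGG, bound by SP and KLF factors, was present in 56.4% of cytosolic and 52.0% of mitochondrial promoters, against 47.0% of all, and the E-box CACGTG in 10.3% and 9.33%, against 7.89%. The NF-Y motif CCAAT was present in 29.5% and 40.0%, against 38.1%, and the TATA box letters TATAAA in 8.97% and 6.67%, against 12.7%. A match is a string of letters and not an occupied site, and promoters of 1 gene overlap.

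The pyrimidine start was the feature with the widest gap between the sets. A C followed by at least 4 C or T bases lay exactly at the listed start in 15 of 78 (19.2%) cytosolic promoters and in 0 of 75 mitochondrial promoters, against 2.23% of all. The 15 were those of Rpl14, Rpl15, Rpl28, Rpl32l, Rpl35, Rpl35a, Rpl38, Rplp2, Rps6, Rps10, Rps15a, Rps18, Rps21, Rps27 and Rps27rt, 1 of which, Rps6, is the substrate of the S6 kinases. Their runs were 5 to 13 bases long. Such a run anywhere within 10 bases of the start was found in 53.8% of cytosolic and 41.3% of mitochondrial promoters, against 31.4% of all, so the exact count depends on the listed start. Median GC content was 58.5% in cytosolic and 58.7% in mitochondrial promoters, against 57.0% in all, and the ratio of observed to expected CpG was 0.865 and 0.820, against 0.586.

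**Figure D5:**
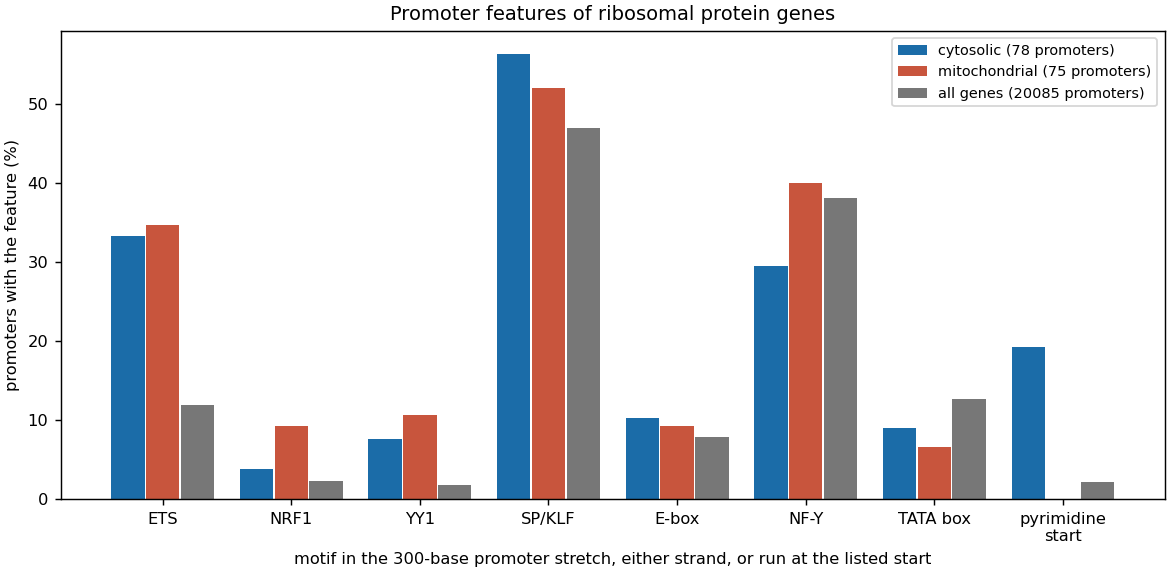
Share of promoters (%) that hold each motif on either strand, or a pyrimidine run at the listed start, in cytosolic members, mitochondrial members and all genes. The ETS motif stands at 33.3% and 34.7% in the members, against 11.9% in all promoters, and the pyrimidine start at 19.2% and 0%, against 2.23%.

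Other genes of the same processes were also called more often than the 35.9% of all genes. Ribosomal proteins with other names were called in all 6 lists in 4 of 8 cases (Fau, Rack1, Dap3 and Aurkaip1). Ptcd3, a mitochondrial small-subunit protein, lacked a peak in young replicate 2 alone, and without that list the count was 6 of 8. Chchd1 stood at 0, 72.9 and 0 in aged lists and 89.3, 73.1 and 75.5 in young lists, and Gadd45gip1 at 44.1, 80.6 and 0 in aged lists and 0, 96.9 and 78.6 in young lists. Of 68 ribosome biogenesis genes 46 (67.6%) were called in all 6 lists (led, by lowest percentile, by Heatr1, Imp4, Rrs1 and Mphosph10, all of ribosome assembly), of 51 cytosolic translation factors 41 (80.4%, led by Etf1, Eif5, Gspt1 and Pabpc1), of 52 mitochondrial translation genes 31 (59.6%, led by Lars2, Mtrf1l, Tfb1m and Tfb2m) and of 20 genes of translation control and growth 12 (led by Akt1s1, Atf4, Tsc1 and Tsc2). In the 5 lists other than young replicate 2 the counts were 60 of 68, 45 of 51, 41 of 52 and 18 of 20, against 44.5% of all genes. None of these genes was called at 1 age alone.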

How the data were processed

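ATAC-seq peak lists of 3 aged and 3 young samples, 1 per sample, were used as deposited. The submitters' processing notes name mm10 as build and MACS2, Bowtie2, Picard and SAMtools as tools; the sources used here give no versions, roles, read depth or shift of reads for the transposase. The deposited score is the −log10 p multiplied by 10, cut to a whole number and limited to 1000. The fold enrichment (a ratio), the −log10 p and the −log10 q are the authors' own values, and every peak had p of at most 0.01.

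Rows with the same interval were merged to distinct peaks. Percentiles are ranks of −log10 p among the distinct peaks of a list, tied peaks sharing their mean rank. Gene ends came from a RefSeq table and starts from a RefSeq promoter table (250 bases before to 50 bases from a start), both on GRCm38.p6. The age fit used limma 3.58.1 in R 4.3.3 on normal scores of gene ranks, for genes called in at least 3 lists, with Benjamini-Hochberg adjustment over all of them; calls, shares and medians were described without a test. Counting and fitting were tested on simulated data. Members and lists were chosen with earlier results of these data known. Per set, the text names the 10 members with the highest lowest percentile, the 8 called in the fewest lists, up to 5 per direction with the largest age difference in lists called, members with unadjusted p under 0.05 (chosen after their values were seen), every blood-failure and other-name ribosomal gene, and up to 4 examples per pathway list. Some genes taken by this rule stay unnamed. Ahsp and Mtrfr, on the erythroid and mitochondrial translation lists, had no match in the gene table. Alternatives were the window, peak limits, the summit, the start alone, the core set, the rank scale, the replicate block, the filter, another scale and leaving out each list.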

Additional observations from a re-analysis of the deposited data

How the results depend on the processing

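Of 287 summary values recomputed under the alternatives 268 kept their size, by the spread between lists or within 1.5 times for counts, and 19 did not. This tally is a weak measure, since it includes the limma counts, which were 0 in every setting. The spread was also wide for medians (SD 20.7 for cytosolic medians in young lists). The cytosolic aged minus young difference therefore counted as kept when it went from 11.5 to −0.406 points without young replicate 2. The main mean difference of the medians, cytosolic minus mitochondrial, was 3.37 percentile points. It was 5.24 with windows of 500 bp, 7.31 with peaks of q at most 0.05, 4.85 with the strongest 100000 peaks per list, 5.68 for the core set, 10.3 on ranks among all genes, 0.959 over whole genes (an alternative chosen after seeing the data) and 2.87 to 3.67 with each list left out. This mean over the lists was above 0 in all of these. Over whole genes, however, young replicate 2 had a cytosolic median of 66.0, below the mitochondrial 73.1. The aged minus young differences rested on young replicate 2 and on the limit for peaks. For cytosolic shares the main value was 2.68 points, with 8.05 at the q limit, 9.58 for the strongest 100000 peaks and 0 to 4.98 with each list left out. For mitochondrial shares the main value was 1.71, with −8.55 to 7.69 with each list left out. For cytosolic medians it was 11.5, with 27.6 at the q limit, 29.3 for the strongest 100000 peaks and −0.406 to 18.1 with each list left out; for mitochondrial medians 12.1, with 28.3, 29.0 and −0.964 to 19.5. Mitochondrial genes called in all 6 lists numbered 43, but 25 at the q limit and 26 among the strongest 100000 peaks. The share of all genes at these limits was not computed, so the drop cannot be set beside the background. Left-out lists gave 63 to 71 cytosolic and 43 to 57 mitochondrial genes called in all remaining lists. Over all genes such a share was computed only without young replicate 2, where it was 44.5%. Members called at 1 age alone numbered 0, except 1 mitochondrial gene in young lists (Mrps23) at the q limit, among the strongest 100000 peaks and with the summit in the window, 0 to 3 with each list left out (Mrps2, Mrps18a and Mrps23 without aged replicate 2), and 0 to 1 cytosolic gene in aged lists (Rpl22 without aged replicate 3). The share of all genes in these settings was not computed, and with a list left out the rule is easier to meet for any gene. The cause of these calls was not tested. limma called 0 genes in every alternative, with a lowest adjusted p of 0.130 for a gene outside the members, with the summit in the window. Without a filter 578 of 20665 genes had an unadjusted p under 0.05. For lists that share a replicate number, the correlations of their deviations from the age mean were 0.03, −0.08 and −0.08 over 14039 genes. For lists with different numbers they ran from −0.03 to 0.14. Deviations from a mean of 3 lists are tied to each other, so these values cannot show that a shared number had no effect. With the replicate block, limma called 0 genes and 480 had an unadjusted p under 0.05. Of 517 counts of lists that call a named member, 463 stayed within 1.5 times. Read depth was not given, so a missing peak cannot be told apart from a shallow library, and gene-end windows miss internal starts.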

Other observations

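X-linked ribosomal protein genes and Tsr2, which escorts Rps26 to the ribosome, lay outside the member rule. Of these 5 genes, 3 were called in all 6 lists and 4 without young replicate 2, against 35.9% and 44.5% of all genes. Rpl10, a large-subunit gene mutated in some human T-cell leukaemias, stood at 97.6, 96.2 and 98.4 in aged lists and 97.2, 98.1 and 93.6 in young lists, and Rpl36a at 92.7, 94.4 and 97.5 in aged lists and 97.9, 73.1 and 93.3 in young lists. Rpl39 stood at 88.8, 93.3 and 67.8 in aged lists and 94.5, 42.7 and 92.1 in young lists. Rps4x, the X-linked form of a small-subunit protein, stood at 93.6, 92.2 and 70.0 in aged lists and 49.3, 0 and 88.9 in young lists. Tsr2 stood at 0, 66.7 and 0 in aged lists and 94.1, 0 and 82.4 in young lists. The ages overlapped for each of the 5.

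Pseudogenes named for ribosomal proteins were rarely near a peak. Of 280, peaks lay within 1 kb of an end of 21.1%, 12.5% and 14.3% in aged lists and 19.3%, 17.5% and 5.36% in young lists, and 0 were called in all 6 lists. Of all 9319 annotated pseudogenes 24.8%, 12.8% and 13.2% were called in aged lists and 25.9%, 22.6% and 10.6% in young lists, and 102 (1.09%) in all 6.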
